A study of Mus musculus with 10 samples.

Results

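The insulin-like growth factor (IGF) axis was followed here as the growth factor Igf1 and the binding proteins Igfbp1, Igfbp2, Igfbp3, Igfbp4, Igfbp5 and Igfbp6 in mouse hepatocytes kept in normoxia or hypoxia. Its members were all probe sets that the platform annotation assigns to exactly 1 of these 7 gene symbols. This gave 11 of the 12488 probe sets on the array, for 6 of the 7 genes (of 8252 genes named by a probe set of their own), and 8 of the 11 were bright enough to be tested. The study holds 10 arrays of total RNA in 4 groups: normoxic untreated cells (n = 2), normoxic adeno-treated cells (n = 2), hypoxic adeno-treated cells that the labels call wild type (n = 3), and hypoxic HIF-1alpha null cells (n = 3). HIF-1alpha is the part of the transcription factor HIF-1 that is broken down when oxygen is plentiful. The labels number the samples 1 to 3 within a group, and no normoxic sample has number 3. The sources used here do not give the adenoviral vector, how HIF-1alpha was removed, whether the null cells also received a virus, the genotype of the normoxic cells, the mouse strain, or the oxygen level and its duration. They also do not say that the samples of a group came from separate cultures, so the p-values measure the spread between these samples, which may be technical.

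IGF1 is made mainly by hepatocytes under growth hormone and carries growth signals through the receptor Igf1r. Most IGF1 in blood is bound: Igfbp3 holds it in a large complex with the acid-labile subunit Igfals, as Igfbp5 also can, whereas the other binding proteins form small complexes that deliver or withhold it. In liver, Igfbp1 is made by hepatocytes, lowered by insulin and raised by fasting and by low oxygen, and Igfbp3 is made mainly by the non-parenchymal cells.

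The hepatocyte label held against its markers, with 19 genes of a list of 22 on the array and a summed intensity of 56710 to 92180 on every array. Albumin (Alb) lay between 8038.9 and 13761.2. Hypoxia was visible in Adm, a hypoxia-inducible peptide hormone that lay at 78.7 to 97.5 in normoxia and at 1481.5 to 2928.1 in hypoxia. The arrays also held markers of other liver cells, and the number 3 arrays of both hypoxic groups stood apart from number 1 in these. The 23 tested stellate cell and fibroblast genes had a median log2 difference, number 3 minus number 1, of -1.31 in hypoxic wild type (23 of 23 lower) and -1.29 in null (21 of 23 lower). Hepatocyte genes had a median of 0.44 and 0.45. In such bulk samples, fewer cells of a type and less RNA per cell cannot be told apart.

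No group difference of any of the 8 tested probe sets passed the test without a replicate block. The test was limma's, on log2 scaled intensities, with Benjamini-Hochberg adjustment over 7453 probe sets and a threshold of 0.05. In hypoxic wild type against normoxic adeno-treated cells, 0 of 8 were called higher, against 0.322% of all tested probe sets, and 0 of 8 lower, against 0%. Between hypoxic null and hypoxic wild type, 0 of 8 were called in either direction, as were 0% of all. In hypoxic null against normoxic adeno-treated cells, 0 of 8 were higher, against 0.349%, and 0 of 8 lower, against 0.0805%. Between both normoxic groups, 0 of 8 were called, with 0% of all. At an unadjusted p under 0.05 the counts in the same order were 0 (7.93% of all), 0 (3.38%), 1 (9.74%) and 0 (8.32%) of 8. The counts of members with groups that did not overlap were near the shares over all probe sets. In hypoxic wild type 0 of 8 lay above both normoxic adeno-treated arrays (11.6% of all) and 0 below (13.1%), and in null 0 lay above (13.8%) and 1 below (12.1%). Between null and hypoxic wild type 0 of 8 were separate with null higher (4.04%) and 0 with null lower (2.74%). Between both normoxic groups 3 of 8 were separate with adeno-treated higher (24.6%) and 0 with it lower (24.3%).

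The medians over the 8 probe sets were small beside their own range. In hypoxic wild type against normoxic adeno-treated cells, the median log2 difference was -0.15 (range -0.59 to 0.71), against -0.02 over all probe sets. Above 0 lay 1 of 8, against 47.2% of all. In null against normoxic adeno-treated cells the median was -0.20 (range -0.63 to 0.73), against 0.0063 over all, and 2 of 8 were above 0, against 50.9%. Null against hypoxic wild type gave -0.0044 (range -0.38 to 0.29), against 0.02, with 4 of 8 above 0, against 55%. Several of the 8 are probe sets of the same gene. Normoxic adeno-treated against untreated cells gave 0.26 (range -0.34 to 1.01), against -0.0064, with 7 of 8 above 0, against 49.4% of all. Both comparisons with normoxic adeno-treated cells share those 2 arrays. A second fit took the sample number as a block, since same-number samples deviated together. In it, 1 of 8 probe sets was called: Igf1 (95546_g_at) was lower in hypoxic null than in normoxic adeno-treated cells, where 2.83% of all were called lower and 2.95% higher. The blocked fit called 0 of 8 in hypoxic wild type (1.49% of all higher, 0.738% lower), 0 of 8 between null and wild type (0.0134% higher, 0.121% lower) and 0 of 8 between both normoxic groups (0.107% higher, 0.148% lower). At an unadjusted p under 0.05 it gave 2 of 8 in wild type (19.1% of all), 2 between null and wild type (9.28%), 3 in null (22.3%) and 0 between both normoxic groups (17.9%). No normoxic array has number 3, so in the blocked fit the number 3 arrays bear on comparisons with normoxia only through the difference of null and wild type.

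**Figure D1:**
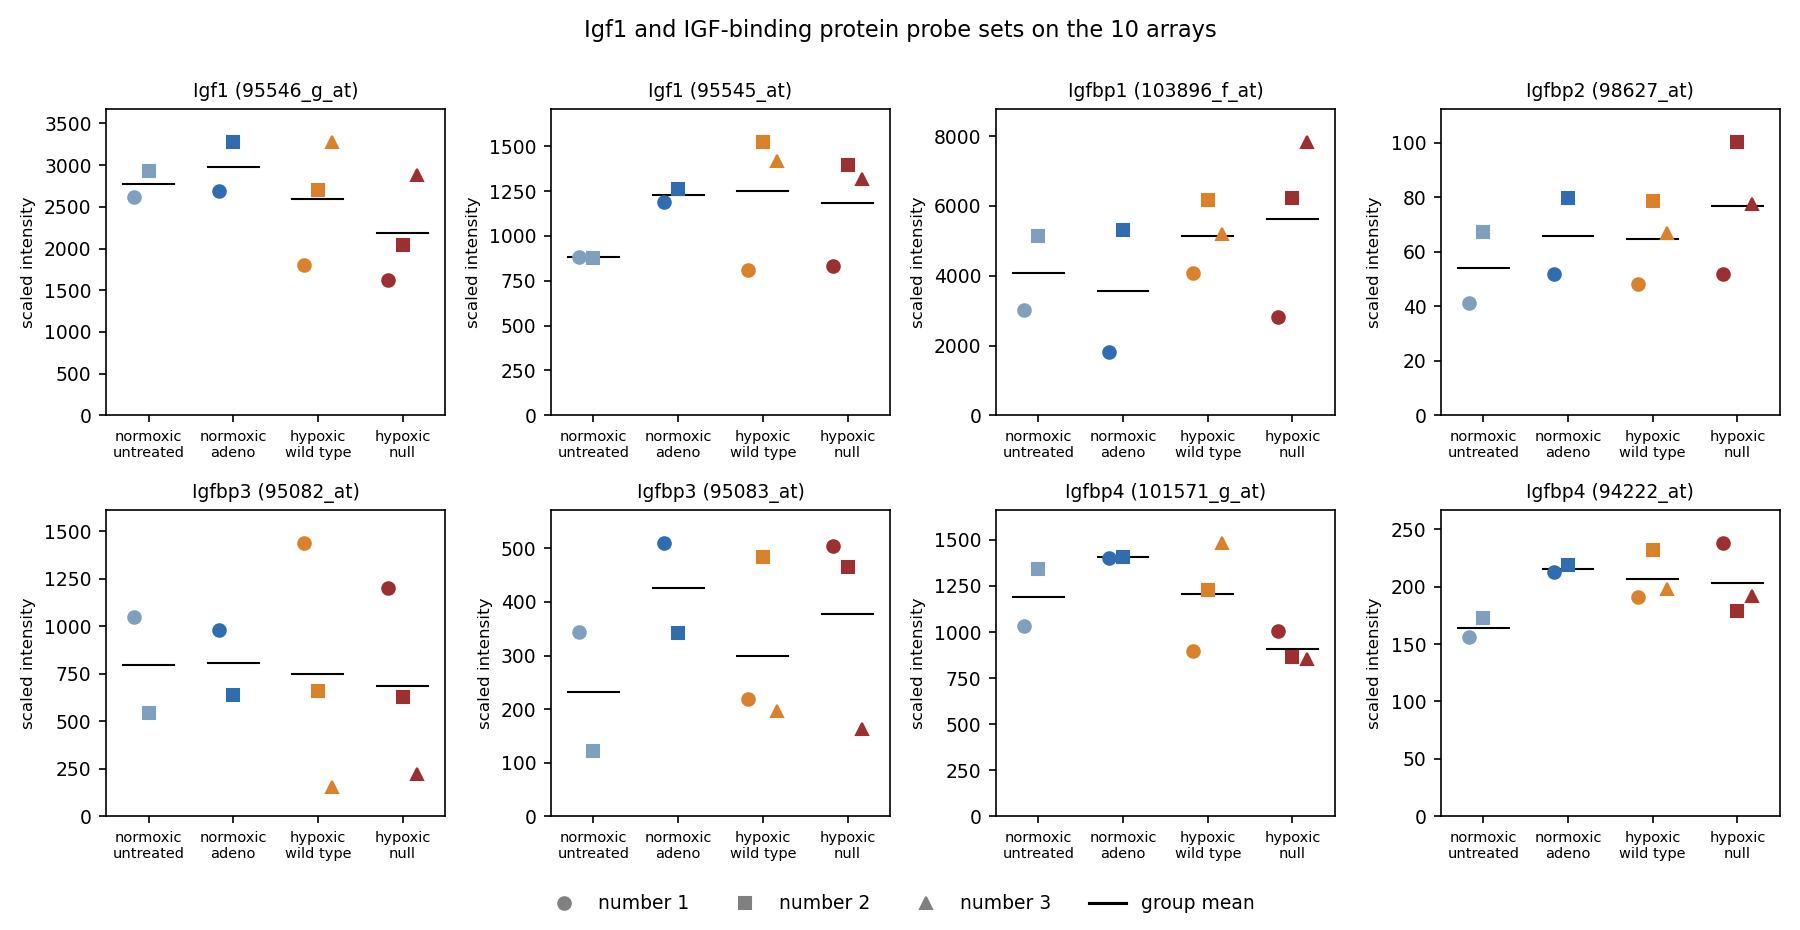
Scaled intensity (linear axis from 0) of the 8 tested probe sets on each of the 10 arrays, by group, with the sample number as the marker shape and the group mean as a bar. The arrays of a group lie far apart for Igfbp1 and for Igfbp3 (95082_at, 156.1 to 1438.5 in hypoxic wild type), and the Igfbp4 probe set 101571_g_at is the one with all 3 null arrays below both normoxic adeno-treated arrays.

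**Figure D2:**
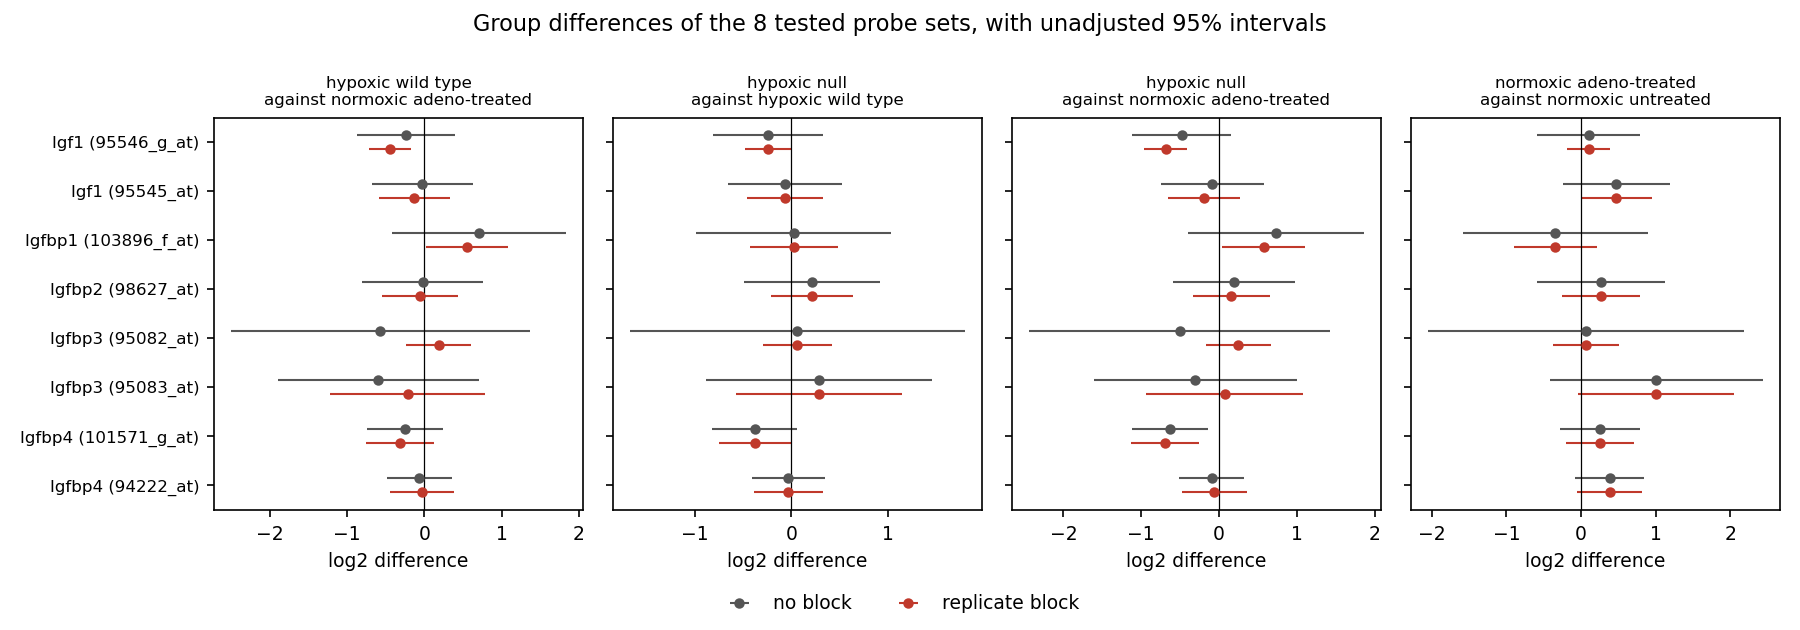
Log2 difference of each tested probe set in the 4 comparisons, as points with unadjusted 95% intervals, without a block (grey) and with the replicate block (red). The blocked intervals are narrower for Igf1 (95546_g_at), Igfbp1 and Igfbp3 (95082_at), and most intervals include 0.

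The promoters of Igf1, Igfbp1 and Igfbp3 are shown because a blocked call was made for Igf1 and arrays differed most for Igfbp1 and Igfbp3, and because HIF-1 binds a short core motif. Each is the 250 bases before the start in RefSeq (GRCm38.p6), 5′ to 3′ on the gene's strand. Capitals mark GCGTG or ACGTG, the HIF-1 core, read on either strand (CACGC or CACGT when reversed), and in Igfbp1 also CAAAACA, a core of the insulin response element bound by FoxO factors.
Igf1 (chr10:87860861-87861110, plus strand): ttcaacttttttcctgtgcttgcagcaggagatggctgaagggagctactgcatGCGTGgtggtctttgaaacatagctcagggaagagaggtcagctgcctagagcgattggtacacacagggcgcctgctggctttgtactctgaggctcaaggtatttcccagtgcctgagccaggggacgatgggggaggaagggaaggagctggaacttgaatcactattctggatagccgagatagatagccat
Igfbp1 (chr11:7197537-7197786, plus strand): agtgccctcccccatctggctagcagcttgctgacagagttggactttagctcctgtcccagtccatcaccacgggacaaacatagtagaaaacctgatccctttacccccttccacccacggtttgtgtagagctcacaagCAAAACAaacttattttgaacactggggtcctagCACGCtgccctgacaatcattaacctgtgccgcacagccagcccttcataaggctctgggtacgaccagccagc
Igfbp3 (chr11:7213924-7214173, minus strand): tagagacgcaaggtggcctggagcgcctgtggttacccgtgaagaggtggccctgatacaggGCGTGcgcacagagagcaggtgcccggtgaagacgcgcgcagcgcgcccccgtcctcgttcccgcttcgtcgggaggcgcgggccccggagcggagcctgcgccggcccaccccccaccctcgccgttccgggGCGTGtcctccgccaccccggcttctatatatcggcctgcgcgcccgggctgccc
Igf1 held 1 HIF-1 core, Igfbp1 held 1 and Igfbp3 held 2. All 7 genes were matched in RefSeq, with 8 promoter entries, of which 4 (of 4 genes, Igfbp2 being the fourth) held a core, against 38.6% of all 32851 promoters. The entries of Igfbp4, Igfbp5 and Igfbp6 and the second entry of Igfbp2 held no core. CAAAACA, also searched on both strands, was in 1 of the 8 entries, that of Igfbp1, against 5.56% of all promoters. TATAAA, the TATA box letters, was in 2 of the 8, those of Igfbp4 and Igfbp6, on either strand, against 12.4% of all. In Igfbp4 the match lay on the gene's strand, 28 to 23 bases before the start. That of Igfbp6 was on the opposite strand, 148 to 143 bases before it. A match describes the sequence and is not a measured site. In the same annotation Igfbp1 and Igfbp3 are neighbouring genes on chromosome 11, and Igfbp2 and Igfbp5 on chromosome 1.

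Igf1, the ligand of the axis, has 2 probe sets, which correlated at r = 0.526 over the 10 arrays (a description, since the arrays share groups and numbers). For 95546_g_at, the intensities were 2613.4 and 2928.3 in normoxic untreated cells, 2683.9 and 3278.5 in normoxic adeno-treated cells, 1798.9, 2699.8 and 3273.4 in hypoxic wild type, and 1627.8, 2037 and 2881.8 in hypoxic null. The means fell in the order normoxic adeno-treated (2981 ± 420.4 SD, n = 2), normoxic untreated (2771 ± 222.7, n = 2), hypoxic wild type (2591 ± 743.3, n = 3) and hypoxic null (2182 ± 639.5, n = 3), and neighbours in this order overlapped. In both hypoxic groups number 1 was the lowest and number 3 the highest.

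Against normoxic adeno-treated cells, Igf1 (95546_g_at) in null was at a log2 difference of -0.48 (SE 0.29, limma adjusted p = 0.633) without a block and fell by 0.69 (SE 0.12, 95% interval -0.96 to -0.41, adjusted p = 0.0144) with it. Same-number differences were -0.72 for number 1 and -0.69 for number 2. The blocked call was lost without normoxic adeno-treated number 1 (adjusted p = 0.0986) or number 2 (0.114), and without null number 2 (0.0896), and was kept without the number 3 arrays (-0.70, adjusted p = 0.0331). Without a normoxic adeno-treated array, that group's single remaining sample takes its spread from the rest. In hypoxic wild type the same-number differences were -0.58 and -0.28, and the blocked difference was -0.44 (SE 0.12, adjusted p = 0.0929), where 0.738% of all were called lower. Null minus wild type was below 0 in 3 of 3 same-number pairs, at -0.14, -0.41 and -0.18, a pattern that 14.3% of all tested probe sets also had. This difference was -0.24 (95% interval -0.81 to 0.32, adjusted p = 0.999), and its adjusted p was 0.509 with the block.

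The second Igf1 probe set, 95545_at, showed the drop in number 1 but not in number 2. Against normoxic adeno-treated cells, same-number differences for numbers 1 and 2 were -0.51 and 0.14 in null, and -0.55 and 0.27 in wild type. Its intensities were 883.3 and 876.9 in normoxic untreated, 1188.1 and 1263.9 in normoxic adeno-treated, 808.9, 1524 and 1418.3 in hypoxic wild type, and 833.8, 1395.5 and 1315.8 in null cells. Number 1 was low in both hypoxic groups, and the other hypoxic arrays lay above all normoxic ones. Null against normoxic adeno-treated cells was at -0.19 (SE 0.21, adjusted p = 0.628) with the block and -0.09 without it. Which of the 2 probe sets follows the Igf1 transcript more closely was not tested. Hepatocyte markers moved beside the blocked Igf1 call in null against normoxic adeno-treated cells. Their 21 tested probe sets had a median of -0.43 with the block, against 0.029 over all probe sets. Of the 21, 7 were called lower, against 2.83% of all. Their part in the Igf1 result was not tested.

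Igfbp1, the binding protein that hepatocytes raise in fasting and low oxygen, spread widely in every group. For 103896_f_at, the intensities were 3025.5 and 5124 in normoxic untreated, 1811.5 and 5309 in normoxic adeno-treated, 4065.8, 6167.6 and 5192.7 in hypoxic wild type, and 2807.8, 6217.3 and 7832.2 in null cells. Number 1 was the lowest array of all 4 groups, and all groups overlapped. The means rose in the order normoxic adeno-treated (3560 ± 2473 SD, n = 2), normoxic untreated (4075 ± 1484, n = 2), hypoxic wild type (5142 ± 1052, n = 3) and null (5619 ± 2565, n = 3), and neighbours in this order overlapped. Hypoxic wild type against normoxic adeno-treated cells gave a log2 difference of 0.71 (SE 0.51, 95% interval -0.42 to 1.84, adjusted p = 0.796), and 0.55 (SE 0.24, interval 0.02 to 1.08, adjusted p = 0.248) with the block. The same-number differences were 1.16 for number 1 and 0.22 for number 2.

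In null against normoxic adeno-treated cells, Igfbp1 was at 0.73 (SE 0.51, adjusted p = 0.692). The blocked value was 0.57 (SE 0.24, adjusted p = 0.194). Without normoxic adeno-treated number 1, the lowest array, the differences without a block were -0.07 in wild type and -0.04 in null, and without number 2 they were 1.48 and 1.51. Null minus hypoxic wild type was 0.02 (95% interval -0.99 to 1.03, adjusted p = 0.999), from same-number differences of -0.53, 0.01 and 0.59. With the block the interval was -0.43 to 0.48 (adjusted p = 0.984). The suffix of 103896_f_at marks a probe set whose probes may match a family of transcripts. The other Igfbp1 probe set, 103897_r_at, lay at 3.1 to 42.1, below the limit for testing, and correlated with it at r = 0.204.

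Igfbp3, the main carrier of circulating IGF1, had the widest spread over the 10 arrays of the 8 tested probe sets, and its values followed the sample number. For 95082_at, the intensities were 1050.6 and 542.1 in normoxic untreated, 978.8 and 637.8 in normoxic adeno-treated, 1438.5, 657.4 and 156.1 in hypoxic wild type, and 1200, 628.2 and 224.6 in null cells. Number 1 was the highest array of all 4 groups, and number 3 was the lowest of both hypoxic groups. The highest array was 9.22 times the lowest, and the SD over the 10 arrays was 1.02 on the log2 scale, at percentile 98.4 of all tested probe sets. The group means were nearly level, at 796.3 ± 359.6 (SD, n = 2), 808.3 ± 241.1 (n = 2), 750.7 ± 646.3 (n = 3) and 684.3 ± 490.1 (n = 3) in the same order.

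Number 3 minus number 1 of 95082_at was -3.17 on the log2 scale in hypoxic wild type and -2.39 in null. It was 1 of 8 members with number 3 at least 2-fold below number 1 in both hypoxic groups, against 4.58% of all tested probe sets, and 0 of 8 were as far above it, against 2.33%. Number 3 was at least 2-fold below number 2 in both hypoxic groups for both Igfbp3 probe sets, 2 of 8, against 2.66% of all. For the other probe set, 95083_at, the intensities were 343.2 and 122.2 in normoxic untreated, 510.2 and 342.7 in normoxic adeno-treated, 218.5, 483.4 and 197 in hypoxic wild type, and 504.4, 465.4 and 162.2 in null cells. It was lowest in number 3 of both hypoxic groups too, but hypoxic wild type number 1 was close to that number 3. Both probe sets correlated at r = 0.521 over the 10 arrays.

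Stellate cell, fibroblast, biliary and endothelial markers were lower on the number 3 arrays, on which Igfbp3 was low, whereas lymphocyte markers were not. The summed intensity of 24 stellate cell and fibroblast genes was 12910 to 14410 in normoxia, 23310, 17460 and 8182 on hypoxic wild-type numbers 1, 2 and 3, and 21850, 15610 and 7469 on the null ones. Of its defining genes, the collagen Col1a1 was 851.9 to 3873.2 and the smooth muscle actin Acta2 was 1399 to 3535.2 over the 10 arrays, while the surface protein Thy1 was 6.6 and 7.4 on the number 3 arrays and 77 to 228.4 on the others. The 4 tested biliary genes had medians of -2.58 and -2.51 for number 3 minus number 1, and the 8 tested macrophage genes -0.79 and -0.16. The 2 tested endothelial genes had -1.07 and -1.39, and the 3 tested lymphocyte genes 0.14 and 1.76. Between numbers 1 and 2 of the normoxic groups, where Igfbp3 (95082_at) differed by -0.95 and -0.61, the stellate cell and fibroblast medians were 0.0015 and 0.042. The biliary medians between the same arrays were -0.86 and -0.77 (4 of 4 lower in both), the macrophage medians -0.21 and -0.47, the endothelial medians -0.065 and -0.48, and the lymphocyte medians 0.28 and 0.24. The part of other cell types in the Igfbp3 differences was not tested.

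**Figure D3:**
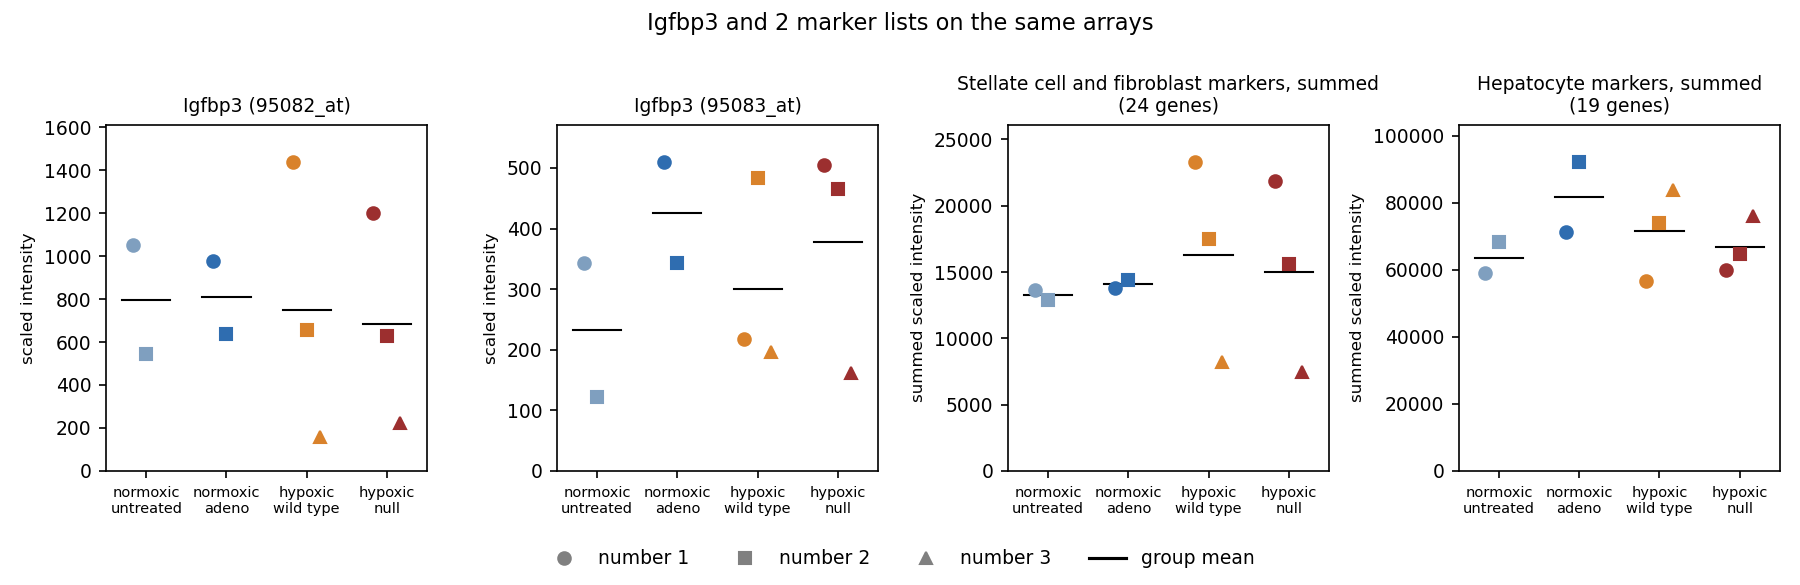
Scaled intensity of both Igfbp3 probe sets and the summed intensity of 24 stellate cell and fibroblast genes and 19 hepatocyte genes, per array and group, with the sample number as the marker shape and the group mean as a bar. In both hypoxic groups number 3 is the lowest for Igfbp3 and for the stellate cell and fibroblast sum (8182 and 7469), and the highest for the hepatocyte sum.

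No group difference of Igfbp3 passed the test in either fit. Hypoxic wild type against normoxic adeno-treated cells was at -0.57 (SE 0.87, adjusted p = 0.925) for 95082_at, and the sign turned with the block (0.19, SE 0.19, adjusted p = 0.64) and without the number 3 arrays (0.30). The same turn was seen in null against normoxic adeno-treated cells, from -0.51 (adjusted p = 0.905) to 0.25 (adjusted p = 0.479) with the block. Null minus hypoxic wild type was 0.06, with a 95% interval of -1.67 to 1.79 without a block and -0.30 to 0.42 with it. For 95083_at the comparisons gave -0.59 (adjusted p = 0.857) in wild type and -0.31 (adjusted p = 0.917) in null against normoxic adeno-treated cells, and 1.01 (SE 0.64, adjusted p = 0.71) for normoxic adeno-treated against untreated cells.

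Igfbp4, a binding protein that mostly withholds IGF from its receptor and is cut by the protease Pappa, has 3 probe sets. For 101571_g_at, the intensities were 1033.7 and 1342 in normoxic untreated, 1403.8 and 1406.8 in normoxic adeno-treated, 898.3, 1229 and 1484.1 in hypoxic wild type, and 1003.5, 864.7 and 854.8 in null cells. All 3 null arrays lay below both normoxic adeno-treated arrays, which 12.1% of all tested probe sets also did and 1 of 8 members. The means fell in the order normoxic adeno-treated (1405 ± 2.12 SD, n = 2), hypoxic wild type (1204 ± 293.7, n = 3), normoxic untreated (1188 ± 218, n = 2) and null (907.7 ± 83.1, n = 3). Null against normoxic adeno-treated cells gave -0.63 (SE 0.22, 95% interval -1.12 to -0.14, adjusted p = 0.368), and -0.69 (SE 0.20, adjusted p = 0.0705) with the block. In the blocked fit, it passed when null number 1 was left out (adjusted p = 0.028) and with none of the other 9 arrays left out. Null minus hypoxic wild type was -0.38 (95% interval -0.82 to 0.06, adjusted p = 0.999), with same-number differences of 0.16, -0.50 and -0.79.

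The second tested Igfbp4 probe set, 94222_at, was the steadiest of the members, with an SD over the 10 arrays of 0.19 on the log2 scale (percentile 10.6). Its intensities were 156.3 and 172.4 in normoxic untreated, 212.5 and 218.6 in normoxic adeno-treated, 190.8, 231.6 and 198.2 in hypoxic wild type, and 238.2, 179.1 and 191.6 in null cells. Both normoxic untreated arrays lay below all others, and the other groups overlapped. It did not repeat the low null values of 101571_g_at: null against normoxic adeno-treated cells was at -0.10 (SE 0.19, 95% interval -0.51 to 0.32, adjusted p = 0.923). The correlation of both tested Igfbp4 probe sets was r = 0.267. The third, 101570_at, lay at 9.2 to 36.7, below the limit for testing, and correlated with them at r = -0.514 and -0.569.

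Igfbp2, a binding protein of liver that rises in fasting, was at low intensity. The values of 98627_at were 41.1 and 67.4 in normoxic untreated, 52 and 79.7 in normoxic adeno-treated, 48.1, 78.8 and 66.9 in hypoxic wild type, and 52, 100.4 and 77.7 in null cells. Number 2 was the highest and number 1 the lowest array of all 4 groups, and the groups overlapped. Null minus hypoxic wild type was above 0 in 3 of 3 same-number pairs (0.10, 0.33 and 0.20), as for 18.4% of all tested probe sets, and the difference of 0.21 (95% interval -0.49 to 0.91) did not pass (adjusted p = 0.999, and 0.784 with the block). Against normoxic adeno-treated cells, wild type was at -0.02 (adjusted p = 0.993) and null at 0.19 (adjusted p = 0.916).

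Igfbp5 and Igfbp6, binding proteins known for matrix binding (Igfbp5) and for a preference for IGF2 (Igfbp6), gave no tested probe set. The probe set that carries the symbol Igfbp5 also carries Tmem119, lay at 4.1 to 7.3 on all arrays, and cannot be assigned to either gene. Igfbp6 (103904_at) lay at 14.6 to 51.5, below the limit for testing. In a fit without that limit, its log2 differences were 0.34 (adjusted p = 0.923) in hypoxic wild type and -0.06 (adjusted p = 0.984) in null against normoxic adeno-treated cells, and -0.40 (adjusted p = 1) for null minus wild type. In the same fit the dim probe sets of Igfbp1 and Igfbp4 also passed in none of the 4 comparisons, with a lowest adjusted p of 0.804.

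In normoxia, 3 of 8 probe sets were higher on both adeno-treated arrays than on both untreated ones, against 24.6% of all tested probe sets. On both treated arrays 0 of 8 were lower, against 24.3%, and none of the 8 passed the test in either fit. These 3 were Igf1 (95545_at) and both tested Igfbp4 probe sets. The log2 differences were 0.48 (SE 0.32, adjusted p = 0.73) for Igf1, 0.25 (SE 0.24, adjusted p = 0.818) for 101571_g_at and 0.38 (SE 0.21, adjusted p = 0.666) for 94222_at. With the block their adjusted p were 0.283, 0.541 and 0.33. The untreated arrays were not used as the control of the hypoxic groups, which the labels tie to adeno treatment in wild type.

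The sample number ran through several members. Number 2 was higher than number 1 in 4 of 4 groups for 3 of 8 probe sets, Igf1 (95546_g_at), Igfbp1 and Igfbp2, against 14.3% of all tested probe sets. The log2 differences, number 2 minus number 1, were 0.16 to 0.58 for Igf1, 0.60 to 1.55 for Igfbp1 and 0.57 to 0.89 for Igfbp2. The reverse held for 1 of 8, Igfbp3 (95082_at), at -1.12 to -0.61, against 16.9% of all. The other probe sets of these genes did not follow throughout: Igfbp3 (95083_at) was higher on number 2 in hypoxic wild type (483.4 against 218.5), and Igf1 (95545_at) was 883.3 and 876.9 in untreated cells. Beside this, the hepatocyte marker genes had medians of 0.22 to 0.43 for number 2 minus number 1 in the 4 groups, with at most 5 of 19 genes lower, and the 4 tested biliary genes -1.21 to -0.70. Their part in the members' differences was not tested.

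The genes around the members were taken from 3 lists. In the list of IGF ligands, receptors and carrier partners, 10 of 17 genes on the array were tested and none was called in hypoxic wild type, where the median was 0.07, or in null, where it was 0.27, against normoxic adeno-treated cells (-0.02 and 0.0063 over all probe sets). With the block these medians were 0.52 and 0.54 (-0.0010 and 0.029 over all probe sets), and those of the stellate cell and fibroblast markers were 0.57 and 0.37. The part of those cells in the list's values was not tested. Igf2, the second IGF ligand, whose postnatal liver expression is low, had the smallest p in wild type. Its intensities (98623_g_at) were 98.8 and 135.3 in normoxic untreated, 74.5 and 56 in normoxic adeno-treated, 135, 148.2 and 103.7 in hypoxic wild type, and 77.7, 162.9 and 126.5 in null cells. All hypoxic arrays lay above both normoxic adeno-treated arrays (11.6% of all in wild type, 13.8% in null) but not above the untreated ones. The differences were 0.93 (adjusted p = 0.456) in wild type and 0.81 (adjusted p = 0.42) in null. Igf1r, the receptor through which Igf1 signals, was at 0.54 (adjusted p = 0.57) and 0.52 (adjusted p = 0.484). Igfals, which joins the Igfbp3 complex, was at -0.25 (adjusted p = 0.903) and -0.17 (adjusted p = 0.91) and is named here although its rank did not select it. Ccn1, a matrix protein with an IGF-binding-like domain, was at 0.65 (adjusted p = 0.785) in wild type and 0.75 (adjusted p = 0.633) in null. Null minus wild type was 0.10 (adjusted p = 0.999) for it. With the block Ccn1 was at 0.93 in wild type, which did not pass (adjusted p = 0.0622). In null it rose by 1.03 (adjusted p = 0.0307) with the block, 1 of 10 probe sets, where 2.95% of all did. This call was lost without any of 6 arrays, both normoxic adeno-treated ones, hypoxic wild-type number 3 and each null array (highest adjusted p = 0.24). In null minus wild type the 3 smallest p belonged to Igf2bp1 (1.17), Igfbp7 (0.35) and Htra1 (-0.18), each with an adjusted p of 0.999.

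In the list of growth hormone signalling, which sets hepatic Igf1 transcription, 19 probe sets of 16 genes were tested and none was called without a block, with medians of 0.03 in wild type and 0.09 in null against normoxic adeno-treated cells. Cebpa, a liver transcription factor, had intensities of 1079.1 and 959.7 in normoxic untreated, 1351.4 and 1277.8 in normoxic adeno-treated, 710.2, 743.1 and 500.9 in hypoxic wild type, and 789.1, 699.2 and 567.1 in null cells. All 6 hypoxic arrays lay below all 4 normoxic ones, and the share of all tested probe sets that did so was not counted. Below both normoxic adeno-treated arrays alone lay 13.1% of all in wild type and 12.1% in null. Against normoxic adeno-treated cells Cebpa was at -1.03 (SE 0.21, adjusted p = 0.125) in wild type and -0.95 (SE 0.21, adjusted p = 0.136) in null, and fell with the block by 0.88 (adjusted p = 0.00781) and 0.79 (adjusted p = 0.00912). Socs2, a feedback inhibitor that growth hormone induces, had intensities of 272.5 and 244.5, 332 and 234.4, 181.8, 156.4 and 92.5, and 123.2, 119.3 and 45.4 in the same group order. It also lay lower on all 6 hypoxic arrays than on all 4 normoxic ones, a pattern not counted over all probe sets. Socs2 was at -0.99 (adjusted p = 0.587) in wild type and -1.62 (SE 0.42, adjusted p = 0.218) in null, and in null it fell by 1.25 (adjusted p = 0.00834) with the block. The blocked calls in this list were thus 1 of 19 lower in wild type (0.738% of all) and 2 of 19 lower in null (2.83% of all). All 3 were lost without normoxic adeno-treated number 1 (adjusted p = 0.0696 to 0.0822) or number 2 (0.054 to 0.113), and that of Cebpa in null without null number 2 (0.0727). Socs1, another inhibitor of this pathway, was at 0.80 (adjusted p = 0.516) in wild type. Between null and wild type, Socs2 (-0.63), Jak2 (0.42) and Foxa2 (0.86) had the smallest p, all with an adjusted p of 0.999. The growth hormone receptor Ghr, named although its rank did not select it, has 2 probe sets, 99107_at and 99108_s_at. In wild type they were at -0.53 (adjusted p = 0.792) and 0.09 (adjusted p = 0.986). In null they were at -0.24 (adjusted p = 0.891) and -0.29 (adjusted p = 0.88). The blocked values in null were -0.35 (adjusted p = 0.54) and -0.55 (adjusted p = 0.0653), and neither passed.

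In the list of insulin and IGF signalling inside the cell, 22 probe sets of 19 genes were tested and 1 was called: Sgk1, a kinase activated downstream of insulin and IGF1, fell in null cells, where 0.0805% of all were called lower (2.83% with the block). The medians were -0.09 in wild type and -0.11 in null. The intensities of Sgk1 were 2331.6 and 2902.8 in normoxic untreated, 2181.1 and 2715.5 in normoxic adeno-treated, 1456.4, 1587.9 and 1374.5 in hypoxic wild type, and 1191, 1091.1 and 1149 in null cells. The null arrays were lowest, all hypoxic wild-type arrays lay above them, and all normoxic arrays lay above both hypoxic groups. How many of all tested probe sets had this order was not counted. Against normoxic adeno-treated cells Sgk1 fell in null by 1.09 (SE 0.16, 95% interval -1.45 to -0.72, adjusted p = 0.0283), and by 1.07 (adjusted p = 0.00307) with the block. This call was kept when 3 of the 10 arrays were left out in turn and lost for the other 7 (adjusted p = 0.0504 to 0.428), namely normoxic untreated number 2, both normoxic adeno-treated arrays, hypoxic wild-type number 2 and each null array. It was also lost without the intensity trend (0.0554) and without the number 3 arrays (0.059).

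In hypoxic wild type Sgk1 was at -0.73 (SE 0.16, adjusted p = 0.186), and it fell by 0.70 (adjusted p = 0.029) with the block. Null minus wild type was -0.36 (SE 0.15, adjusted p = 0.999), and 0.309 was its adjusted p with the block, although all null arrays lay below all wild-type ones, as 2.74% of all tested probe sets did. Eif4ebp1, the translation repressor that insulin and IGF1 switch off through mTOR, was at 0.95 (SE 0.18, adjusted p = 0.101) in hypoxic wild type. It rose by 0.86 (adjusted p = 0.0203) with the block, where 1.49% of all were called higher. Its intensities were 624.9 and 703.8 in normoxic untreated cells and 485.2 and 495.4 in normoxic adeno-treated cells. With the block and both normoxic groups joined, Eif4ebp1 was at 0.65 and did not pass (adjusted p = 0.0742). Its blocked call was lost without any of normoxic adeno-treated number 1 or 2 or wild-type number 1 or 2 (adjusted p = 0.0632 to 0.174), and that of Sgk1 in wild type without either normoxic adeno-treated array, any of the 3 hypoxic wild-type arrays or null number 3 (0.071 to 0.25). The blocked call of Sgk1 in null was lost without normoxic adeno-treated number 2 (0.0612). Tsc2 (97953_g_at, -0.64, adjusted p = 0.457) and, for null minus wild type, Map2k1 (-0.78, adjusted p = 0.79) and Eif4ebp1 (-0.39, adjusted p = 0.999) were the other probe sets of smallest p. The other tested Tsc2 probe set, 97951_s_at, was level in the same wild-type comparison, at 0.01 (adjusted p = 0.993).

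**Figure D4:**
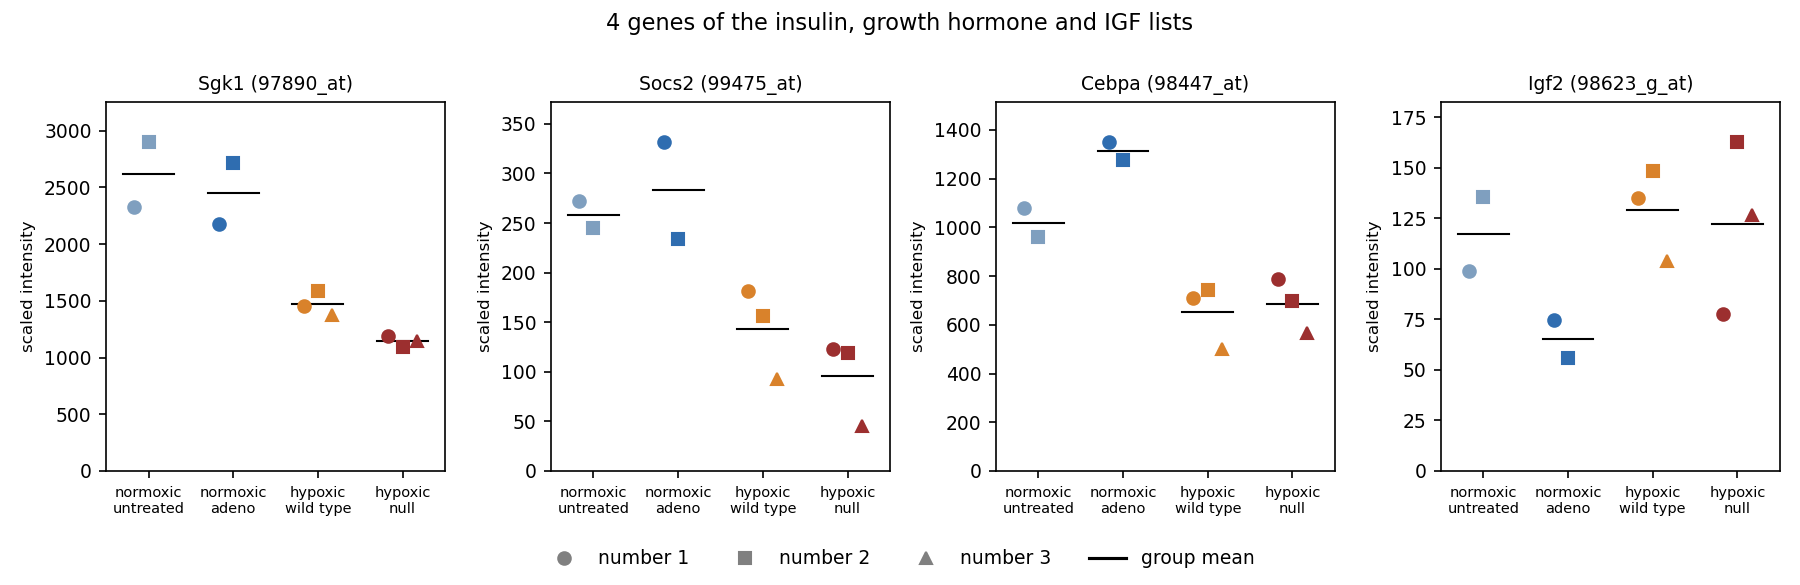
Scaled intensity (linear axis from 0) of Sgk1, Socs2, Cebpa and Igf2 on each array by group, with the sample number as the marker shape and the group mean as a bar. Sgk1, Socs2 and Cebpa lie lower on all 6 hypoxic arrays than on all 4 normoxic ones, a pattern not counted over all probe sets. For Igf2 both normoxic adeno-treated arrays (74.5 and 56) and null number 1 (77.7) are the lowest.

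The profiles most like those of the members over the 10 arrays are given as a description, with no p, since the arrays share groups, numbers and scaling. Igf1 (95546_g_at) was most like Cideb (r = 0.975), Cps1 (0.971), the urea cycle entry enzyme, and Slc37a4 (0.957), the glucose 6-phosphate transporter, all known for high expression in hepatocytes. Igfbp3 (95082_at) was most like Tsc22d1 (0.987), Msn (0.981), a membrane-cytoskeleton linker, and Nid1 (0.977), a basement membrane protein. Igfbp1 was most like Gcdh (0.935), Gucd1 (0.933) and Igha (0.919). Igfbp2 was most like Slpi (0.946), Slc6a9 (0.938) and Icam1 (0.935), and Igfbp4 (101571_g_at) like Mfn1 (0.929), Nudt1 (0.91) and Naxe (0.889). Some of these genes ran over a narrow range: Igha ran from 53.5 to 89.7 and Mfn1 from 231.8 to 358.1.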

How the data were processed

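The study hybridised RNA from mouse hepatocytes to 10 expression arrays, 1 per sample, each with 12488 probe sets. The deposited values are signal intensity values per probe set on a linear scale, made by the authors. No source used here names the software. The 2% to 98% trimmed mean of every array is 200.1 or 200.2, so the deposited values are scaled between arrays. Probe sets were named from the platform annotation: 10855 carry 1 symbol, 396 several and 1237 none.

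From these, log2(intensity + 4.7) was computed, with the offset at the 10th percentile of all values. The 66 control probe sets and those with a mean log2 below the 40th percentile (a geometric intensity of about 37.6) were left out, leaving 7453. A fold change on this scale understates the change of dim probe sets. Groups were compared with limma 3.58.1 (R 4.3.3), fitting 4 group means over the 10 arrays with an intensity trend (two-sided, 6 residual degrees of freedom, 4 with the replicate block). The fit without a block was first checked on simulated data, for hypoxic wild type against normoxic adeno-treated cells only. Those data held no sample-number effect, and the blocked fit was not checked in this way. The number of arrays limits the precision. All same-number pairs of arrays (13) deviated together from their group means (r of 0.106 to 0.678). The 24 other pairs had r of -0.518 to 0.251, and these ranges overlap. Deviations from a group mean balance each other, and in a group of 2 arrays they are exact opposites. The r of normoxic arrays thus mirror each other: untreated number 1 had 0.379 with adeno-treated number 1 and -0.379 with number 2. Negative r of the other pairs are therefore partly fixed in advance. Same-number samples were taken as pairs on this ground, which does not show that they were paired. The lowest r of the same-number pairs involve normoxic arrays.

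The members, the 3 gene lists, the marker lists and the tests were chosen with earlier results of these data known. Of each list, probe sets past the threshold in any comparison were named, and otherwise the 3 of smallest p in hypoxic wild type against normoxic adeno-treated cells and in null against wild type. Genes called with the block alone, Igfals and Ghr were named after their values were seen, unless their p selected them. For each member with a tested probe set, the 3 most correlated probe sets of other genes were named. Alternatives were the offset, filter, scaling, trend, replicate block, joined normoxic groups, no number 3 arrays and each array left out.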

Additional observations from a re-analysis of the deposited data

How the results depend on the processing

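The fit without a block called no member in any comparison. With the replicate block, which takes same-number samples as pairs, 1 member was called lower in null against normoxic adeno-treated cells. This was also so with the block and quantile normalization, median scaling, no number 3 arrays or joined normoxic groups. These 4 combinations were chosen after seeing the data. Over both fits, leaving out each array gave 0 to 2 such calls. The block changed no other member's call. Of 1290 values for 39 results, 1089 kept direction and side of the threshold, 78 passed it where the fit without a block did not, 10 (all of Sgk1 in null) no longer passed it, and 113 turned sign, none of them called (lowest adjusted p = 0.336). The cause was not tested. All values here are log2 differences. The number of arrays limits them.

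In hypoxic wild type against normoxic adeno-treated cells, joined normoxic groups turned Igf1 95545_at to 0.21 (0.11 with the block), Igfbp2 to 0.11 (0.077) and Igfbp4 94222_at to 0.13 (0.16), and with the block Igfbp3 95083_at to 0.29. Igfbp3 95082_at turned to 0.19 with the block, 0.30 without the number 3 arrays (0.30 with the block), and with the block to 0.19 under quantile normalization, 0.13 under median scaling and 0.22 with joined groups. In null against wild type, Igfbp1 (0.024) turned to -0.038 under median scaling, which moved the median of all probe sets by -0.0595, and -0.26 without the number 3 arrays, and Igfbp3 95082_at to -0.16 without them, in both fits. In null against normoxic adeno-treated cells, joined groups turned Igf1 95545_at to 0.15 (0.044 with the block) and Igfbp4 94222_at to 0.096 (0.13). Igfbp3 95082_at turned to 0.25 with the block, 0.14 without the number 3 arrays in both fits, and with the block to 0.23 under quantile normalization, 0.13 under median scaling and 0.28 with joined groups. Igfbp3 95083_at turned to 0.070 with the block, 0.21 without the number 3 arrays in both fits, 0.20 with joined groups, and with the block to 0.039 under quantile normalization and 0.57 with joined groups.

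Leaving out each array in turn, in both fits, turned the sign of these. In wild type against normoxic adeno-treated cells the ranges were -0.57 to 0.0031 for Igf1 95546_g_at, -0.36 to 0.26 for 95545_at, -0.067 to 1.48 for Igfbp1, -0.31 to 0.26 for Igfbp2, -1.29 to 0.38 for Igfbp3 95082_at, -0.995 to 0.54 for 95083_at, and -0.15 to 0.091 for Igfbp4 94222_at. In null against wild type they were -0.35 to 0.17 for Igf1 95545_at, -0.28 to 0.46 for Igfbp1, -0.81 to 0.78 for Igfbp3 95082_at, -0.32 to 0.80 for 95083_at, and -0.19 to 0.12 for Igfbp4 94222_at. In null against normoxic adeno-treated cells they were -0.42 to 0.14 for Igf1 95545_at, -0.043 to 1.51 for Igfbp1, -0.097 to 0.48 for Igfbp2, -1.06 to 0.44 for Igfbp3 95082_at, -0.59 to 0.28 for 95083_at, and -0.26 to 0.12 for Igfbp4 94222_at. Between both normoxic groups they were -0.044 to 0.24 for Igf1 95546_g_at, -1.12 to 0.43 for Igfbp1, -0.060 to 0.59 for Igfbp2, and -0.41 to 0.54 for Igfbp3 95082_at.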
